A study of Mus musculus with 38 samples.

Results

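The genes described here are 7 WNT ligands (Wnt3, Wnt4, Wnt5a, Wnt6, Wnt7b, Wnt10a and Wnt11) and 2 genes that the WNT pathway switches on (Axin2 and Lef1), followed through the reprogramming of mouse embryonic fibroblasts (MEFs). They were chosen by name, without a threshold on any value but with earlier results of these data known. They are 9 of the 35976 genes in the table of the RNA time course. All 9 were found by symbol in both bulk RNA tables and in the single-cell count table.

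The study asked how BMP4, added to cells on their way to pluripotency, turns them towards primitive endoderm (PrE), the extraembryonic layer that lines the early blastocyst cavity and later gives rise to yolk sac endoderm. MEFs from E13.5 embryos of OG2 and 129S4/SvJaeJ parents received retroviruses for 2 days, carrying Jdp2, Glis1, Esrrb and Sall4 (JGES), the same set without Sall4 (JGE), that set with Oct4 in its place (JGEO) or all of them (JGESO). After infection the cultures were kept in iCD3, a medium supplemented with mLIF, TV, Y27632, SGC0946, Vitamin C, bFGF, LSD1-HCL and CHIR99021, and the BMP4+ cultures also received BMP4 at 10 ng per ml. In a second experiment MEFs received SALL4 alone, as the wild-type protein (SALL4-WT) or as SALL4-delN12, which lacks the first 12 amino acids that recruit the NuRD co-repressor, and were grown in iCD3 without BMP4. RNA was read in bulk on days 0, 1, 3, 5 and 7 of JGES without BMP4, on days 1, 3, 5 and 7 with it, on day 7 of the other factor sets with and without BMP4, and on days 1, 5, 9 and 11 of the SALL4 forms. Single cells of JGES were read on day 7 with and without BMP4, open chromatin (ATAC-seq) in MEFs and on days 1, 5, 9 and 11 of the SALL4 forms, and SALL4 and the active mark H3K27ac (CUT&Tag) on day 6. Each condition was deposited as 1 library or 1 peak list, so no difference below has a replicate check, and no p-value is given.

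WNT proteins are secreted, lipid-modified ligands that bind Frizzled and LRP receptors on nearby cells. In the canonical branch the receptors stop the kinase GSK3 from marking β-catenin for destruction, and β-catenin then joins TCF and LEF factors on DNA. Wnt3 is needed for gastrulation, Wnt4 for kidney and female reproductive tract, Wnt7b for placenta and lung, and Wnt10a for teeth and skin, while Wnt6 is made by endoderm of the early embryo and Wnt5a and Wnt11 are best known for branches that do not use β-catenin. Axin2 codes for a scaffold of the β-catenin destruction complex and is a feedback target in most tissues, and Lef1 codes for a DNA-binding partner of β-catenin. CHIR99021, a component of iCD3, inhibits GSK3 and so turns on the canonical branch below the ligands.

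In the mouse GENCODE vM21 annotation (mm10), Wnt6 (chr1:74771892-74785322) and Wnt10a (chr1:74791516-74804179) are neighbours on the plus strand, and Wnt10a begins 6193 bases after Wnt6 ends. Wnt4 lies at chr4:137277489-137299726, Wnt3 at chr11:103774150-103817957, Wnt5a at chr14:28504750-28527448 and Wnt11 at chr7:98835112-98855195, all on the plus strand, and Wnt7b at chr15:85535437-85582473 on the minus strand. Axin2 lies at chr11:108920349-108950783 and Lef1 at chr3:131110471-131224356, both on the plus strand. Exons of Wnt5a, Wnt7b, Axin2 and Lef1 overlap an antisense gene (Gm2670, AU022754, Gm11670 and Gm43352), and because the use of strand in the bulk libraries is not given in the sources used here, reads from such a pair cannot be told apart. Wnt11 likewise holds the pseudogene Gm8398 on the other strand.

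RefSeq promoter sequences (GRCm38.p6, the assembly of mm10) were matched for 6 of the 9 genes, in 10 entries; Wnt5a, Wnt7b and Wnt10a were not matched. The letters CTTTGAT or CTTTGAA, which TCF and LEF factors are known to bind, were searched on both strands of the 300 bases around each start. They were found in 1 of the 10 entries, that of the first Wnt11 start, and in 2842 of the 32851 promoters in the table (8.65%). A match describes letters only. The stretches below are shown because the chromatin data bear on them (Wnt6 and Axin2) or because the search found its letters there (Wnt11). Each promoter stretch covers the 250 bases before the start on the plus strand, at chr7:98834862-98835111 for Wnt11, chr11:108920099-108920348 for Axin2 and chr1:74771642-74771891 for Wnt6. The last stretch, chr1:74773155-74773390, is the shortest of the 9 ATAC-seq peaks, 1 from each list, that cover a shared stretch in the first intron of Wnt6. Capitals mark the search match in Wnt11, which reads as CTTTGAT on the other strand, and, in the Wnt6 intron, the 220 bases that all 9 ATAC-seq peak lists share.
Wnt11 promoter: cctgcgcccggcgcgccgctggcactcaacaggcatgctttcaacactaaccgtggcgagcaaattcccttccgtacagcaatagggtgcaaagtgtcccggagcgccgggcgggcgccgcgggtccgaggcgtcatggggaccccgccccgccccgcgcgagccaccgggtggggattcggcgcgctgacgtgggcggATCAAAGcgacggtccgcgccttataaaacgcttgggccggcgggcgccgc
Axin2 promoter: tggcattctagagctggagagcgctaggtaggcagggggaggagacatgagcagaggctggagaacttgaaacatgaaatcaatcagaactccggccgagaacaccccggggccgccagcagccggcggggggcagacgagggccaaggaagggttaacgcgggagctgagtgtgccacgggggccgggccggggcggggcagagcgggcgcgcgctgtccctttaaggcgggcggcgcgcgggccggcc
Wnt6 promoter: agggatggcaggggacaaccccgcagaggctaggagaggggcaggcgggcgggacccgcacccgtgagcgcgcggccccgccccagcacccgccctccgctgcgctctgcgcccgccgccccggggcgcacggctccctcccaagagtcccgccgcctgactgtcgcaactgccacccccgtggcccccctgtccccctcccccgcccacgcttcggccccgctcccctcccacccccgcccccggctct
Wnt6 intron peak: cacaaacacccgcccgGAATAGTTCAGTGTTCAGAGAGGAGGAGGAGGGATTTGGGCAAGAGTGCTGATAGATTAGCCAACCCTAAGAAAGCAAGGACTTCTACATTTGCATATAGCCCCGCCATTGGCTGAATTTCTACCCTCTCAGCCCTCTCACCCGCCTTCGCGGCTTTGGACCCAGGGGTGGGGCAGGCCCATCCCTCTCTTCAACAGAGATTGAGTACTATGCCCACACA
The Axin2, Wnt6 and Wnt11 stretches hold 24, 28 and 37 CpG dinucleotides and are 69.2%, 79.6% and 70.8% G and C, whereas the Wnt6 intron peak holds 6 CpG in 236 bases and is 53.8% G and C.

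Bulk values are FPKM, fragments scaled to transcript length and library size, so levels can be compared between genes, and the files give no read depth. Differences are of log2(FPKM + 1), a scale that understates the change of low genes, and a gene is said to have risen or fallen when the difference reached 1, among genes at 1 FPKM or more in either library. Each library had between 12030 and 14621 genes at 1 FPKM or more. Of the delivered factors, Jdp2, Esrrb and Sall4 were high in JGES, whereas Glis1 was at most 1.13 FPKM in every bulk library, including those labelled as having received it. In bulk RNA, fewer cells of a type and less RNA per cell cannot be told apart.

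With JGES, BMP4 was accompanied by higher RNA of all 7 ligands by day 7, and on day 1 Wnt4 had the largest difference of the 9 genes. Without BMP4, Wnt4 read 4.66 FPKM on day 0, then 3.74, 1.36, 1.98 and 1.10 FPKM on days 1, 3, 5 and 7. With BMP4 it read 18.7, 59.0, 54.1 and 26.2 FPKM on the same days. The series with and without BMP4 did not overlap, and the ratio was 4.99 on day 1, 43.5 on day 3, 27.4 on day 5 and 23.9 on day 7. How many of all genes had series without overlap was not counted.

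Wnt6 and Wnt10a, the neighbouring pair, were the highest of the 7 ligands in the JGES libraries of the time course, and they first rose with and without BMP4. Wnt6 read 71.4 FPKM on day 0 and then 276, 182, 51.7 and 68.9 FPKM without BMP4, against 164, 202, 191 and 176 FPKM with it. Wnt10a read 32.9 FPKM on day 0, then 212, 107, 41.7 and 23.9 FPKM without BMP4 and 114, 99.7, 132 and 122 FPKM with it. On day 1 both were thus higher without BMP4, by 0.75 and 0.89 on the log2 scale, short of the threshold. On day 3 Wnt6 was the higher one with BMP4 and Wnt10a still the lower one, again short of the threshold. On days 5 and 7 both passed it with BMP4, by 1.87 on day 5 and 1.34 on day 7 for Wnt6 and of 1.64 and 2.31 for Wnt10a.

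Wnt7b and Wnt5a were at lower levels, and both were higher on day 1 than on day 0 in each arm. Wnt7b read 11.7, 23.2, 7.59, 1.28 and 1.21 FPKM from day 0 to day 7 without BMP4, and 20.1, 7.36, 2.93 and 15.9 FPKM from day 1 with it. Wnt7b was thus low on day 5 in both arms and differed by the threshold only on day 7, by 2.94. Wnt5a read 17.2, 31.0, 15.4, 9.43 and 5.05 FPKM without BMP4 and 34.4, 20.6, 27.6 and 20.2 FPKM with it. Without BMP4 it was thus below its day 0 level on days 3, 5 and 7. With BMP4 it stayed above that level on each day, though it was lower on day 7 than on day 1.

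Wnt3 was listed at 0 in the day 0 library and appeared in both arms. It read 1.81, 2.64, 2.03 and 1.01 FPKM without BMP4 and 3.80, 5.97, 11.5 and 5.76 FPKM with it, and its BMP4 difference passed the threshold on day 5 (2.04) and day 7 (1.75). Wnt11 changed direction. It read 4.80 FPKM on day 0, then 9.67, 7.62, 2.7 and 3.05 FPKM without BMP4 and 4.20, 9.09, 10.5 and 12.7 FPKM with it, which is lower with BMP4 on day 1 (a log2 difference of -1.04), near equal on day 3 (0.23) and higher on days 5 (1.63) and 7 (1.76).

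The 2 target genes followed another course than the ligands. Axin2 rose from 2.13 FPKM on day 0 to 29.4 FPKM on day 1 without BMP4 and to 20.1 FPKM with it, that is 13.8 times and 9.47 times its starting level, and stayed between 17.1 and 29.4 FPKM in all 8 later libraries. Its BMP4 difference lay between -0.52 and 0.53 on all 4 days and never reached the threshold. Lef1 read 1.11 FPKM on day 0, then 0.462, 2.95, 7.09 and 7.95 FPKM without BMP4 and 1.66, 3.30, 4.64 and 4.91 FPKM with it. It therefore passed the threshold over day 0 from day 5 in the first arm and from day 3 in the other, and on days 5 and 7 its level was the lower one with BMP4, by 0.52 and 0.60 on the log2 scale.

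**Figure D1:**
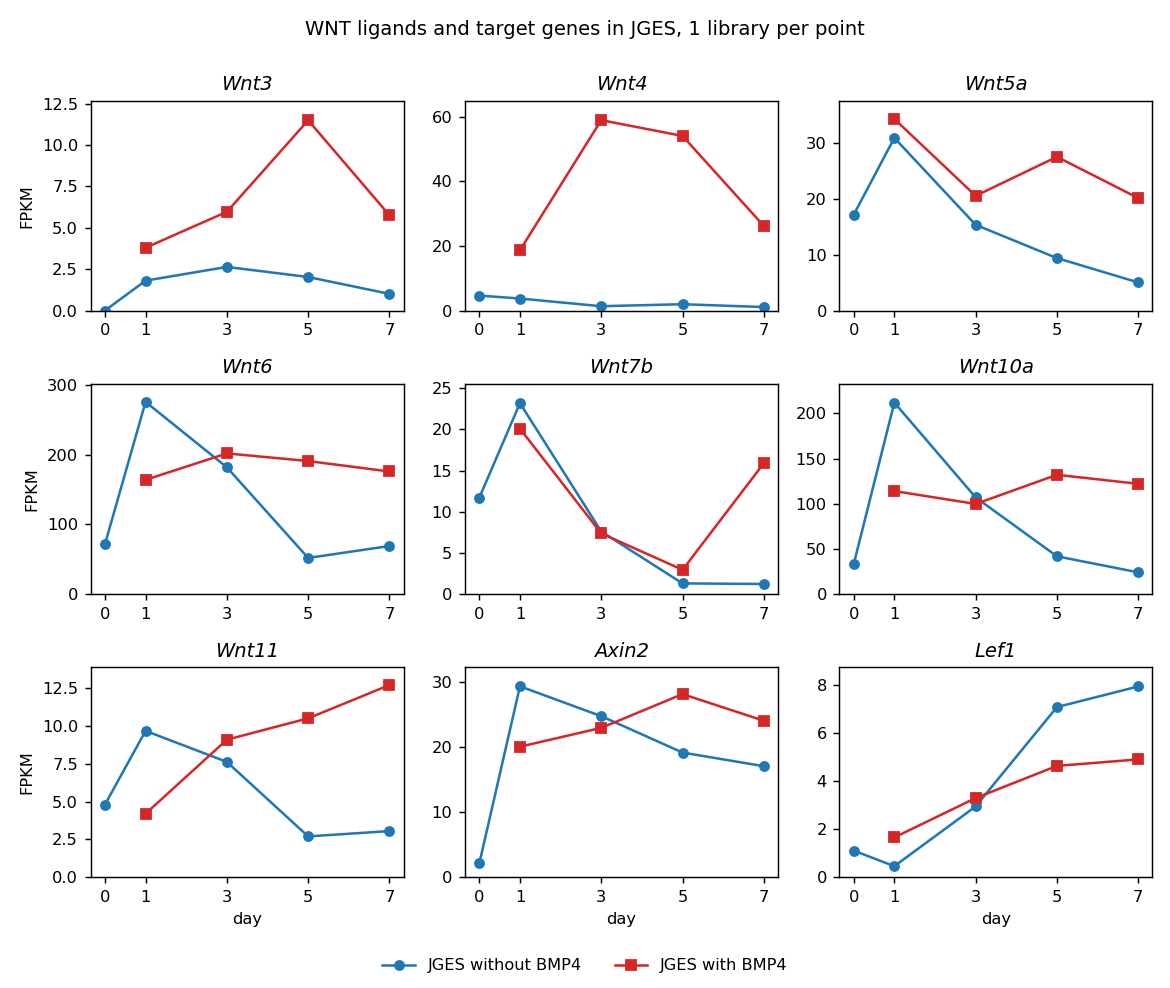
FPKM (vertical axes, each from 0) of the 9 genes against the day of JGES reprogramming, as lines without and with BMP4, with 1 library per point. The Wnt4 lines stay apart on every day, the Wnt6 and Wnt10a lines cross between days 1 and 3 or 3 and 5, and the Axin2 lines lie together above 17 FPKM from day 1.

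Counted together, 1 of the 9 genes rose with BMP4 on day 1 (Wnt4), when 3.75% of 13582 tested genes rose, and 1 fell (Wnt11), when 5.72% fell. With a pseudocount of 0.1 in place of 1, Wnt3 (1.03) and Lef1 (1.65) also passed the threshold on day 1. On day 3, 1 rose (Wnt4) against 6.81% of genes, and none fell against 8.99%, and Wnt3 joined it with that pseudocount (1.15) or with libraries scaled to the same median ratio (1.01). On day 5, 6 ligands rose, all but Wnt7b, against 8.78% of genes, and on day 7 all 7 ligands rose against 10.3% of 15347 genes. None of the 9 fell on these days, when 13.2% and 13.8% of genes fell. The median difference of the 9 genes was -0.19, 0.15, 1.63 and 1.76 on days 1, 3, 5 and 7, beside -0.02, -0.09, -0.18 and -0.14 over all tested genes. From day 0 to day 1 without BMP4, 4 of the 9 rose (Wnt3, Wnt6, Wnt10a and Axin2) against 11.8% of genes, and none fell against 9.28%. With BMP4 5 rose, the same 4 and Wnt4, against 9.78%, and none fell against 9.05%. By day 7 without BMP4, 3 had risen over day 0 (Wnt3, Axin2 and Lef1) against 22.2%, and 3 had fallen (Wnt4, Wnt5a and Wnt7b) against 10.4%, whereas with BMP4 7 had risen, all but Wnt5a and Wnt7b, against 17.5%, and none had fallen against 9.47%. On days 3 and 5 without BMP4, 4 and 3 had risen against 16.4% and 20.2%, and 1 had fallen on each day against 10.5% and 10.0%. With BMP4 6 had risen on either day against 13.7% and 14.9%, and none and 1 (Wnt7b) had fallen against 9.98% and 9.85%. All of these comparisons share the day 0 library.

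Of the other genes of the pathway, in 8 lists of 69 genes, 11 of 58 tested rose with BMP4 on day 7 and 10 fell, beside 10.3% and 13.8% of all tested genes, with a median of 0.07. Secreted inhibitors made up 4 of the 11: Dkk1, which blocks the LRP co-receptors, went from 2.89 to 73.5 FPKM and Dkk2 from listed at 0 to 3.61 FPKM. The R-spondin Rspo4, an enhancer of WNT signalling, went from 2.38 to 30.5 FPKM and its receptor Lgr6 from 0.662 to 26.7 FPKM. Of the 2 secretion genes, the WNT carrier Wls rose from 45.1 to 96.0 FPKM, while Porcn, the enzyme that adds the lipid to WNT proteins, fell from 20.1 to 1.45 FPKM. Among target genes, T, Sp5 and Cdx1 fell, Sp5 from 44.5 to 4.68 FPKM, as did the inhibitor Sost, from 24.5 to 3.68 FPKM. Of 14 tested receptors and co-receptors none rose and 2 fell (Fzd5 and Fzd9), and none of the 8 cytoplasmic transducers passed the threshold.

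From day 0 to day 1 without BMP4, 12 of 48 tested pathway genes rose and 7 fell, beside 11.8% and 9.28% of all tested genes. Of the other feedback and target genes, 5 of the 7 tested rose and none fell, among them Sp5, from 0.160 to 18.7 FPKM, and Apcdd1, a WNT inhibitor that the pathway itself induces, from 2.64 to 50.4 FPKM. With BMP4 4 of 7 tested rose and none fell, beside 9.78% and 9.05% of all tested genes, with Sp5 at 16.3 FPKM and Apcdd1 at 36.9 FPKM. The receptor Fzd10 went from 1.91 to 24.2 FPKM without BMP4 and to 47.3 FPKM with it. The inhibitors Sfrp1 and Dkk3 fell in both arms, Dkk3 from 34.9 to 2.68 FPKM without BMP4. Whether the day 0 cells had met CHIR99021 is not given in the sources used here, and without BMP4 the delivered factors went from day 0 to day 1 from 650 to 712 FPKM for Sall4, 375 to 947 FPKM for Jdp2 and 240 to 480 FPKM for Esrrb. Factor level, medium and time cannot be told apart in this step.

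Marker sums of other cell types also changed over the days and between the arms, not always in the direction of the ligands. From day 0 to day 1 without BMP4 the fibroblast sum fell, for example, while Wnt6 and Wnt10a rose. The summed FPKM of 6 fibroblast markers was 1290 on day 0, then 296, 86.6, 72.2 and 89.2 without BMP4 and 358, 347, 566 and 998 with it. The sum of 6 keratinocyte markers was 10.3 on day 0 and 7.64 on day 7 without BMP4, where Krt5, Krt14, Krt15 and Dsg3 were listed at 0, against 88.4 on day 7 with BMP4. The sum of 8 placenta-like markers on day 7 was 89.9 without and 255 with BMP4, that of 8 PrE markers 80.1 and 266, and that of 8 pluripotency markers 853 and 30.4. Their part in the ligand differences was not tested.

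The other factor sets separated the ligands from each other on day 7. In JGE 2 of the 9 genes rose with BMP4, namely Wnt3 and Wnt4, against 4.28% of genes. In JGES 7 rose (10.2% of genes in the table of the factor sets), in JGEO none (2.26%), and in JGESO 3, namely Wnt5a, Wnt7b and Wnt10a (5.29%). No gene of the 9 fell with BMP4 in any set, where 4.78%, 13.7%, 1.95% and 3.52% of genes fell. The median difference of the 9 was 0.09, 1.76, 0.12 and 0.56 in the order JGE, JGES, JGEO and JGESO, beside -0.05, -0.13, 0.04 and 0.01 over all tested genes. This table was normalised on its own, and the JGES libraries in it are the day 7 libraries of the time course at 0.975 and 0.978 times their FPKM there, so they are no further replicate.

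Wnt4 went with BMP4 from 20.4 to 76.4 FPKM in JGE and from 1.07 to 25.6 FPKM in JGES, against 6.47 to 9.21 FPKM in JGEO and 5.81 to 12 FPKM in JGESO. Its level without BMP4 was thus lowest in JGES and highest in JGE. Wnt3 went from 1.09 to 10.1 FPKM in JGE and from 0.98 to 5.64 FPKM in JGES, but stood at 14.0 FPKM in JGEO without BMP4 and at 23.6 FPKM with it. In JGESO Wnt3 was 3.99 and 4.28 FPKM.

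Wnt6, Wnt10a and Wnt5a were lowest in the 2 libraries that had Sall4 and no BMP4. Wnt6 was 67.2 FPKM in JGES and 71.9 FPKM in JGESO without BMP4, and between 106 and 206 FPKM in the other 6 libraries. Wnt10a was 23.3 and 10.3 FPKM in those same 2 libraries and between 43.6 and 120 FPKM in the others. Wnt5a was 4.92 and 12.9 FPKM there and between 19.8 and 32.1 FPKM elsewhere. Wnt7b was low in more libraries, at 1.18 FPKM in JGES without BMP4, 1.44 and 1.97 FPKM in JGEO and 2.21 FPKM in JGESO without BMP4, against 15.5 FPKM in JGES with BMP4, 6.33 FPKM in JGESO with BMP4 and 12.4 and 7.88 FPKM in JGE. Wnt11 ranged from 2.98 FPKM in JGES without BMP4 to 22.7 FPKM in JGESO with it.

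The target genes were higher in each library that had received Oct4 than in any that had not. Pou5f1, the gene of Oct4, read 1570 (BMP4-) and 1600 (BMP4+) FPKM in JGEO, and 370 and 449 FPKM in JGESO, but also 224 FPKM in JGES without BMP4, to which no Oct4 was delivered, against 5.94 FPKM in JGES with BMP4 and at most 0.0970 FPKM in JGE. Axin2 was 23.5 and 25.1 FPKM in JGE without and with BMP4 and 16.7 and 23.6 FPKM in JGES, against 64.8 and 42.9 FPKM in JGEO and 57.5 and 40.3 FPKM in JGESO. Lef1 had 8.27, 10.7, 7.75 and 4.80 FPKM without delivered Oct4 and 18.1, 13.7, 17.6 and 16.8 FPKM with it.

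**Figure D2:**
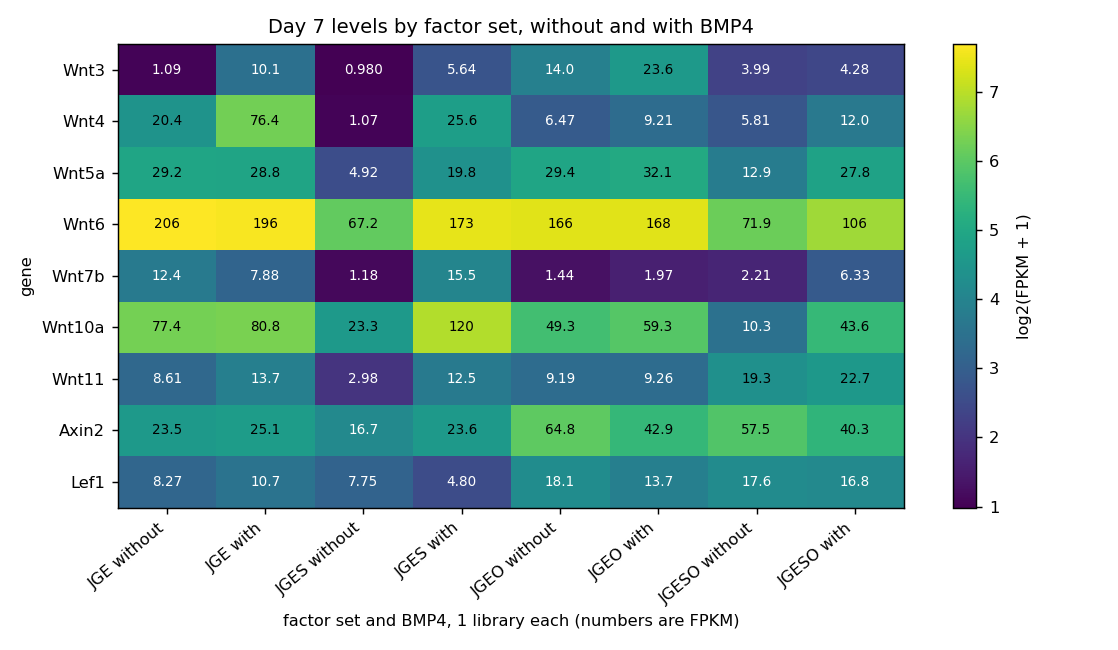
Heat map of FPKM on day 7 (numbers in the cells) for the 9 genes in rows and the 4 factor sets without and with BMP4 in columns, coloured by log2(FPKM + 1) from dark (low) to yellow (high), with 1 library per column. The JGES column without BMP4 holds the lowest value of Wnt3, Wnt4, Wnt5a, Wnt6, Wnt7b, Wnt11 and Axin2, and the 4 columns with delivered Oct4 hold the highest values of Axin2 and Lef1.

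With Sall4 added to JGE in the absence of BMP4 (JGES over JGE) 6 ligands fell and none of the 9 rose, when 16.9% of genes fell and 20.1% rose. The differences were -3.37 for Wnt4, -2.63 for Wnt7b, -2.35 for Wnt5a, -1.69 for Wnt10a, -1.60 for Wnt6 and -1.27 for Wnt11. In the presence of BMP4 2 fell (Wnt4 by 1.54 and Lef1 by 1.01) against 11.1%, and none rose against 12.1%. With libraries scaled to the same median ratio Lef1 no longer passed the threshold (-0.86) and Wnt7b did (1.06). With Sall4 added to JGEO (JGESO over JGEO) 4 ligands fell without BMP4 against 20.7%, Wnt10a by 2.15, Wnt3 by 1.58, Wnt6 by 1.19 and Wnt5a by 1.13, and none rose against 7.48%. With that scaling 2 of the 4 falls remained, since Wnt6 and Wnt5a came just short of the threshold, and Wnt11 rose (1.19). With BMP4 Wnt3 alone fell, by 2.22 (21.2%), and Wnt7b and Wnt11 rose, by 1.30 and 1.21 (7.77%). Other delivered factors differed in these contrasts too. Without BMP4 Jdp2 read 1720 and 228 FPKM in JGE and JGES, and 1290 and 320 FPKM in JGEO and JGESO. Esrrb read 561, 167, 384 and 109 FPKM in the same order. With BMP4 Jdp2 read 1500, 254, 1510 and 541 FPKM, and Esrrb 369, 125, 486 and 134 FPKM. The part of Jdp2 and Esrrb in these falls and rises was not tested.

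With Oct4 added to JGE in the absence of BMP4 (JGEO over JGE) Wnt3 rose by 2.84, Axin2 by 1.43 and Lef1 by 1.04 on the log2 scale (Lef1 just short of the threshold with median-ratio scaling), when 10.2% of genes rose, and Wnt7b fell by 2.46 and Wnt4 by 1.52, when 11.9% fell. In the presence of BMP4 Wnt3 rose by 1.15 (7.54%), and Wnt4 fell by 2.92 and Wnt7b by 1.58 (4.29%). With Oct4 added to JGES (JGESO over JGES) 6 genes rose without BMP4, Wnt11 by 2.35, Axin2 by 1.73, Wnt4 by 1.72, Wnt3 by 1.33, Wnt5a by 1.23 and Lef1 by 1.09, against 16.8% of genes, and Wnt10a fell by 1.10, against 32.7%. With BMP4 Lef1 rose by 1.62 (14.0%), and Wnt10a, Wnt7b and Wnt4 fell by 1.44, 1.17 and 1.03 (24.9%). In JGESO more genes were lower than higher against both of its comparators, as these shares show. Each of the 4 factor sets enters 2 of these contrasts, so the contrasts are not independent. The Wnt4 rise from JGES to JGESO without BMP4 started from the lowest Wnt4 value of the table.

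Several other values differed between these libraries. Id1, a direct BMP target looked up after the values were seen, was 48.8 and 188 FPKM without and with BMP4 in JGE and 63.3 and 234 FPKM in JGES, but 81.1 and 60.1 FPKM in JGEO and 339 and 334 FPKM in JGESO. Other BMP targets did not all follow Id1 in the sets with Oct4. Id3 went from 285 to 172 FPKM in JGEO and from 432 to 316 FPKM in JGESO, and Id2 from 105 to 54.1 and from 70.5 to 75.3 FPKM. Smad6 went from 15.2 to 19.1 FPKM in JGEO and from 36.1 to 49.4 FPKM in JGESO, and Smad7 from 12.7 to 18.3 and from 21.0 to 26.1 FPKM. The fibroblast marker sum was 764 and 351 in JGE, 87.0 and 976 in JGES, and 489 and 311 in JGEO. In JGESO it was 685 and 1050, so the JGES library without BMP4 was again the lowest. Without BMP4, in the order JGE, JGES, JGEO and JGESO, pluripotency markers summed to 0.524, 831, 241 and 366 FPKM. PrE markers summed to 21.4, 78.0, 54.1 and 509 FPKM there and placenta-like markers to 45.6, 87.6, 42.1 and 270 FPKM. Macrophage markers summed to 73.5, 4.76, 35.0 and 23.9 FPKM there, and keratinocyte markers to 47.4, 7.44, 8.42 and 22.6 FPKM. With BMP4 the keratinocyte sum was 21.5, 86.4, 12.3 and 158 FPKM. The part of these in the ligand differences was not tested.

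Among the pathway lists, Dkk1 rose with BMP4 in JGE too, from 0.561 to 14.9 FPKM, where 9 of 53 tested genes rose and 5 fell, beside 4.28% and 4.78% of all genes. The inhibitor Wif1 went from 23.3 to 79.5 FPKM there. In JGEO 1 of 56 rose, Dkk1, and 4 fell, beside 2.26% and 1.95%, and in JGESO 4 of 53 rose and 5 fell, beside 5.29% and 3.52%. From JGES to JGESO without BMP4, Ctnnb1, which codes for β-catenin itself, went from 217 to 35.8 FPKM, while Axin2 and Lef1 rose as given above.

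The single-cell table placed the ligands among the cell labels that the authors had given. It holds 11335 cells with BMP4 and 8685 cells without, with a median of 21205 and 12738 UMIs (unique molecules counted) per cell, and 2 barcodes occur in both samples. With BMP4 7125 cells were labelled intermediate state, 2372 ParE, 1453 endothelial and 385 placenta-like. Without BMP4 6211 were labelled intermediate state, 142 ParE, 507 endothelial and 1825 pluripotent. ParE is read here as the study's PrE-like cells (PrECLCs), which the sources used here do not spell out. Summed over cells, PrE markers stood at 2870 CPM (UMI counts scaled to the same total) in PrECLCs with BMP4 and 1410 CPM without, against at most 375 CPM under any other label. Pluripotency markers stood at 7120 CPM in pluripotent cells, endothelial markers at 869 and 575 CPM in endothelial cells and placenta-like markers at 2900 CPM in placenta-like cells, each the highest of its list. Since the labels came from clustering these same cells, differences between labels are descriptions, and intervals below are 95% Poisson intervals for counting error only.

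With BMP4, 5 of the 7 ligands were highest in intermediate-state cells. Wnt4 stood at 459 CPM there (456 to 462), Wnt6 at 379 CPM (376 to 382), Wnt10a between 198 and 203 CPM, Wnt5a at 96.2 CPM and Wnt3 at 24.7 CPM (23.9 to 25.5). In PrECLCs the same 5 stood at 64.6, 40.9, 18.9, 15.4 and 2.46 CPM. Wnt7b was 11.9 CPM (11.4 to 12.5) in intermediate-state cells and 14.4 CPM (12.3 to 16.7) in placenta-like cells, a ratio of 1.21 (1.02 to 1.41). Without the 6% of cells with the most UMIs, taken as possible doublets, Wnt7b was 11.7 and 11.3 CPM, and in PrECLCs Wnt4, Wnt6, Wnt10a, Wnt5a and Wnt3 were at 53.3, 32.2, 15.3, 13.7 and 1.64 CPM. Wnt11 was the exception, with 24.9 CPM (23.7 to 26.2) in PrECLCs, 12.4 CPM (11.8 to 12.9) in intermediate-state cells, and with 7.24 CPM under the endothelial and 3.20 CPM under the placenta-like label. How many of all genes were highest in intermediate-state cells was not counted. By at least 1 on the log2(CPM + 1) scale, 7, 6 and 6 of the 9 genes were lower than there in PrECLCs, endothelial and placenta-like cells. The shares of all genes were 17.3%, 16.8% and 14.9%. None of the 9 was higher by that much, against 11.1%, 9.26% and 11.7%.

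PrECLCs thus had less RNA of most ligands than intermediate-state cells. Against all other BMP4+ cells, most of them intermediate-state, 7 of the 9 genes were lower by at least 1 on the log2(CPM + 1) scale, against 16.2% of 13089 genes, and Wnt11 was higher, against 7.66%. The median of the 9 was -2.28, beside 0.02 over all tested genes. The levels of Wnt3, Wnt4, Wnt5a, Wnt6, Wnt7b and Wnt10a in PrECLCs were 9.45% to 16.0% of those in intermediate-state cells. The 6 fibroblast markers were at 7.19% to 20.9% of their intermediate-state level, among them 7.76% for Col1a1, 12.7% for Col1a2 and 7.19% for Col3a1. The part of free RNA from other cells in these low levels was not tested. Axin2, at 56.8%, Lef1, at 27.4%, and Wnt11, at 202%, lay above both ranges. In endothelial cells the same 6 ligands were at 6.48% to 15.3% and the 6 fibroblast markers at 6.14% to 23.4% of the intermediate-state level. Of the 7 ligands only Wnt3 was higher in endothelial cells than in PrECLCs, at 3.78 CPM (3.16 to 4.48), so a low ligand level was not particular to PrECLCs.

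With BMP4 Axin2 differed less between labels than any other of the 9 genes. It was 71.7 CPM (70.4 to 73) in intermediate-state cells, 77.6 CPM (72.7 to 82.8) in placenta-like cells, 51.0 CPM in endothelial cells and 40.8 CPM in PrECLCs. Without BMP4 it was 30.6, 20.3, 15.9 and 13.7 CPM in intermediate-state, endothelial, PrE-like and pluripotent cells. Lef1 was 20.5, 15.2, 12.6 and 5.62 CPM in intermediate-state, placenta-like, endothelial and PrE-like cells with BMP4, and 16.1, 11.3, 3.56 and 2.65 CPM in intermediate-state, pluripotent, endothelial and PrE-like cells without it, the last from 5 UMIs.

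Without BMP4, pluripotent cells held little ligand RNA. Wnt6 was 10.1 CPM in them and 88.9 CPM (86.9 to 91.0) in intermediate-state cells, Wnt4 2.22 and 18.3 CPM (17.4 to 19.3), and Wnt5a 2.26 and 18.7 CPM. Wnt3, Wnt7b and Wnt11 were low under both labels, and in pluripotent cells they stood at 56.4%, 53.3% and 36.9% of the intermediate-state level. In PrECLCs without BMP4, Wnt6, Wnt4 and Wnt5a were low too, at 9.52, 5.82 and 6.35 CPM. Compared with intermediate-state cells, 5 of the 9 genes were lower in pluripotent cells, against 14.2% of genes. Wnt4 was highest in cells labelled endothelial, at 24.3 CPM (21.1 to 27.9), which rests on 205 UMIs in 51 of the 507 cells. The share of cells with a Wnt4 UMI did not follow that order, at 10.1% (7.58 to 13.0) and 11.5% (10.7 to 12.3) in endothelial and intermediate-state cells, and 4.34% and 4.91% after thinning to 4000 UMIs per cell. Wnt11 was highest in PrECLCs, at 12.2 CPM (7.71 to 18.3), against 2.46 CPM (2.14 to 2.83) in intermediate-state cells, so that the order PrECLCs over intermediate state for Wnt11 was seen in both samples. In the 142 PrECLCs without BMP4, Wnt3 and Wnt7b had 1 UMI each and Wnt10a had 2 UMIs.

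**Figure D3:**
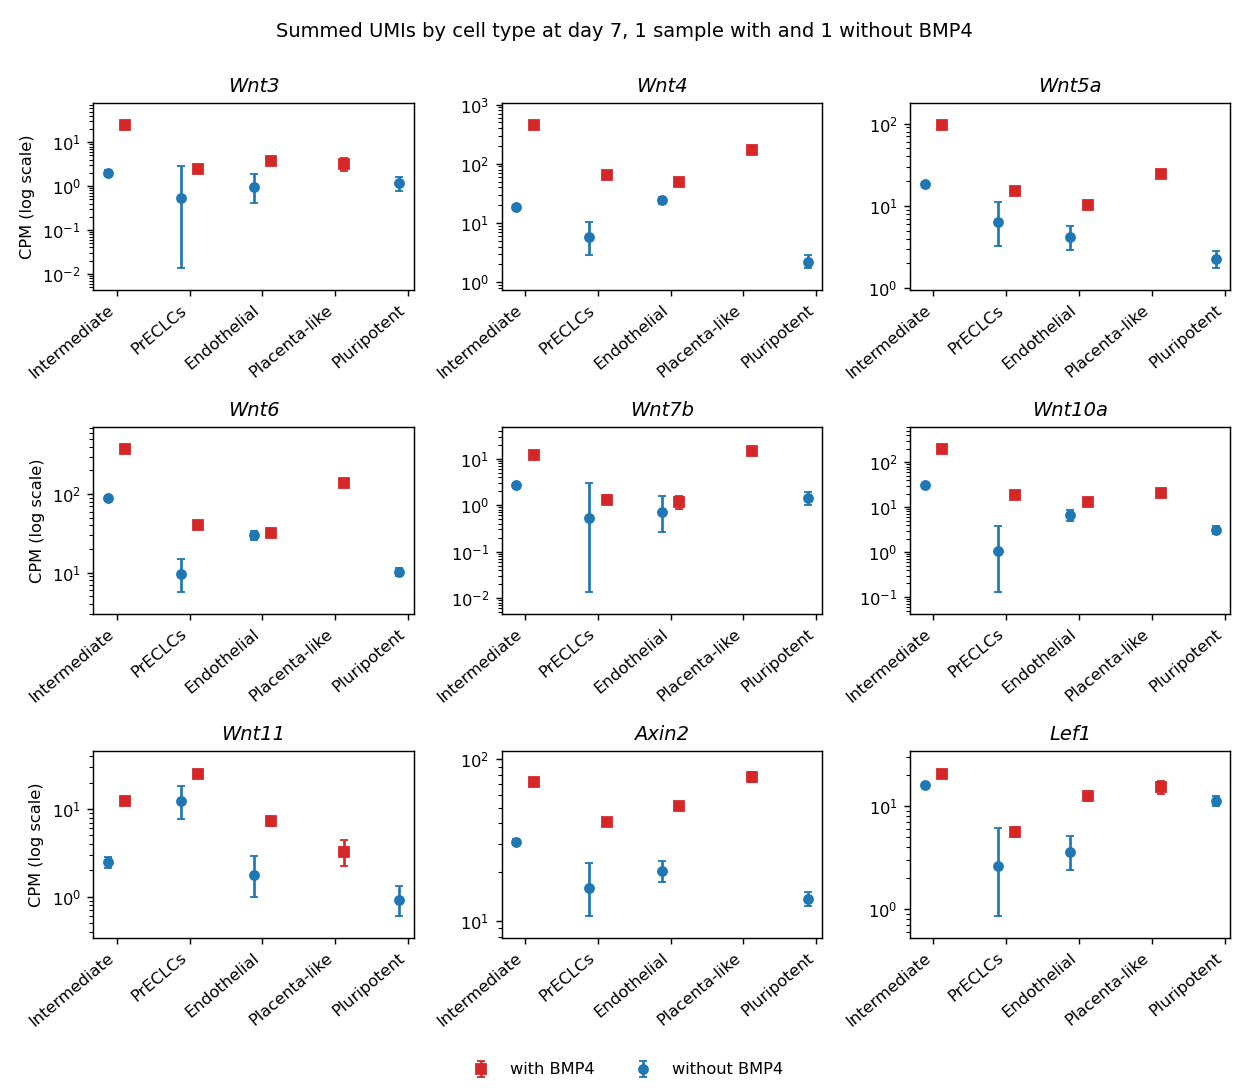
CPM (log axis) of the 9 genes summed over the day 7 cells of each label, with BMP4 and without, with 95% Poisson bars for counting error. Wnt11 is the panel in which PrECLCs stand above intermediate-state cells in both samples.

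For the 7 ligands the BMP4 difference of bulk day 7 was also seen over all single cells, which are another library of the same condition. The ratio of CPM with BMP4 to that without was 20.7 (19.7 to 21.7) for Wnt4, 9.27 (8.07 to 10.7) for Wnt3, 6.46 for Wnt11, 5.82 for Wnt10a, 4.69 for Wnt5a, 3.81 for Wnt6 and 3.75 for Wnt7b. Axin2 had a ratio of 2.43 (2.34 to 2.52) and Lef1 of 1.14 (1.08 to 1.21), whereas in bulk the ratio was 1.41 for Axin2, short of the threshold, and 0.617 for Lef1. On the log2(CPM + 1) scale 8 of the 9 genes, all but Lef1, were higher by at least 1, when 23.8% of genes were. Their median was 2.15, beside 0.47 over all genes, and the depth per cell differed between the samples as given above.

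Within intermediate-state cells alone, 8 of the 9 were again higher with BMP4 (23.6% of genes; median 2.08 beside 0.41). The ratio there was 25 (23.8 to 26.3) for Wnt4, 12.2 for Wnt3, 6.59 for Wnt10a, 5.16 for Wnt5a, 5.01 for Wnt11, 4.49 for Wnt7b, 4.26 for Wnt6, 2.34 for Axin2 and 1.28 for Lef1. Within endothelial cells 6 were higher (19.4%), Wnt6 not among them with a ratio of 1.07 (0.935 to 1.23), and Lef1 had a ratio of 3.53 (2.44 to 5.29). Within PrECLCs Wnt3, Wnt4, Wnt5a, Wnt6, Wnt10a and Axin2 were higher, 6 of the 9 (22.7%), with a ratio of 11.1 (6.19 to 22.2) for Wnt4. Wnt3 and Wnt10a among them rest on 1 and 2 UMIs without BMP4, so no ratio is given for them. Wnt11, with a ratio of 2.05 (1.36 to 3.24), was just short of the threshold at 0.98. Intermediate-state cells of the 2 samples differed in other ways too: the fibroblast marker sum was 1020 CPM with and 145 CPM without BMP4, the keratinocyte sum 97.3 and 16.6 CPM and the placenta-like sum 499 and 154 CPM. In PrECLCs with and without BMP4 the pluripotency sum was 29.8 and 880 CPM. The placenta-like sum was 925 and 479 CPM there, and the fibroblast sum 111 and 33.9 CPM. In endothelial cells with and without BMP4 the pluripotency sum was 28.2 and 293 CPM. The placenta-like sum was 236 and 102 CPM there, and the fibroblast sum 96.5 and 39.5 CPM. The part of these sums in the ligand ratios was not tested.

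Shares of cells were compared after thinning each cell to 4000 UMIs, which left out no cell. Of intermediate-state cells, 57.7% had a Wnt6 UMI with BMP4 (56.5 to 58.8, exact binomial 95% interval) and 22.5% without, against 80.7% and 41.3% before thinning. For Wnt4 the shares were 51.6% and 4.91%, for Wnt10a 41.1% and 9.71%, for Wnt5a 26.4% and 6.91% and for Axin2 22.3% and 11.2%. Wnt11 was found in 8.81% of PrECLCs (7.70 to 10.0) and 4.79% of intermediate-state cells with BMP4, and in 4.93% and 1.09% without. No label is sure to lack these ligands; the lowest shares among pluripotent cells were 0.329% for Wnt11 and 0.438% for Wnt3.

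With SALL4 alone, the forms differed most in Wnt6, Wnt10a and Wnt7b on days 5, 9 and 11, and in Wnt4 and Wnt11 on day 1. The delivered Sall4 itself read 549, 491, 518 and 290 FPKM on days 1, 5, 9 and 11 of SALL4-WT and 809, 623, 971 and 428 FPKM with SALL4-delN12, higher on each day, and its part in the differences below was not tested. Wnt6 read 3.70, 2.29, 5.08 and 10.0 FPKM on days 1, 5, 9 and 11 of SALL4-WT and 17.3, 83.3, 134 and 53.4 FPKM with SALL4-delN12. Wnt10a read 4.55, 2.62, 8.01 and 8.92 FPKM with SALL4-WT and 7.48, 50.1, 95 and 38.4 FPKM with SALL4-delN12. Wnt7b read 1.51, 0.197, 1.01 and 1.03 FPKM, and 6.83, 16.1, 26.0 and 5.85 FPKM. For Wnt6 and Wnt7b the values of the 2 forms did not overlap, and on day 5 the ratio was 36.5 for Wnt6 and 19.1 for Wnt10a. All 3 peaked on day 9 with SALL4-delN12. The share of all genes whose values did not overlap between the forms was not counted.

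The other ligands did not share this. Wnt4 read 11.9, 77.1, 83.3 and 51.8 FPKM with SALL4-WT and 59.7, 98.4, 122 and 67.4 FPKM with SALL4-delN12, so that it passed the threshold only on day 1 (2.23). Wnt5a was 9.47, 20.9, 22.1 and 22.3 FPKM against 17.1, 34.6, 38.0 and 30.6 FPKM, higher with SALL4-delN12 on each day by 0.44 to 0.79, under the threshold. Wnt11 was the only one lower with SALL4-delN12 past the threshold, on day 1, with 11.2 FPKM against 1.95 FPKM (-2.04), and on the later days it lay between 2.53 and 5.37 FPKM in both. Wnt3 was at most 0.368 FPKM in all 8 libraries and was not tested.

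Axin2 and Lef1 lay higher with SALL4-delN12 on every day, mostly under the threshold. Axin2 read 12.8, 16.4, 14.8 and 18.3 FPKM with SALL4-WT and 17.1, 27.9, 32.0 and 21.5 FPKM with SALL4-delN12, and passed it on day 9 (1.06). Lef1 read 4.86, 10.9, 9.61 and 9.90 FPKM and 10.2, 18.5, 14.0 and 21.4 FPKM, and passed it on day 11 (1.04).

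**Figure D4:**
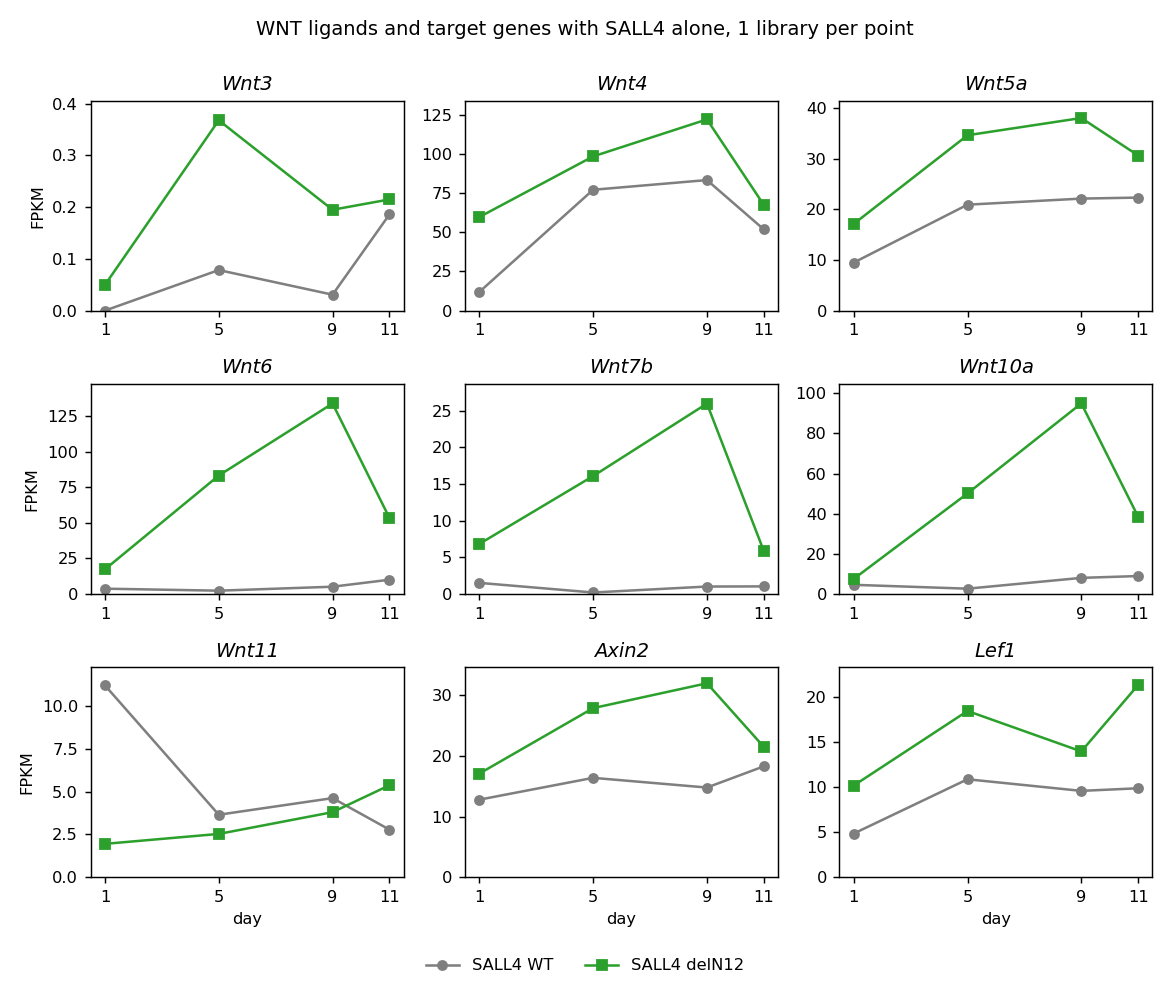
FPKM (vertical axes, each from 0) of the 9 genes on days 1, 5, 9 and 11 of MEFs with SALL4-WT or SALL4-delN12 alone, with 1 library per point. The Wnt6, Wnt7b and Wnt10a lines of SALL4-delN12 peak on day 9, while those of SALL4-WT stay at or below 10.0 FPKM.

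In counts, 3, 3, 4 and 4 of the 9 genes rose from SALL4-WT to SALL4-delN12 on days 1, 5, 9 and 11, when 4.18%, 4.67%, 6.09% and 6.55% of genes rose. On day 1 these were Wnt4, Wnt6 and Wnt7b, and on day 5 Wnt6, Wnt7b and Wnt10a. Wnt11 alone fell, on day 1, when 5.63% of genes fell. On days 5, 9 and 11 none fell against 5.19%, 5.75% and 6.58%. The median of the 9 genes, with the untested Wnt3 included, was 0.79, 0.72, 0.76 and 0.75, beside -0.03, -0.01, 0.03 and 0.01 over all tested genes.

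Of the other feedback and target genes, 5 of 7, 6 of 8, 5 of 9 and 5 of 7 tested rose from SALL4-WT to SALL4-delN12 on days 1, 5, 9 and 11 and none fell, beside the shares of all genes given above. On day 5 the feedback inhibitor Nkd2 went from 1.84 to 23.4 FPKM and the target Sp5 from 0.574 to 8.45 FPKM. Of all 55 tested pathway genes that day 13 rose and 5 fell. The ligand Wnt7a went from 0.484 to 17.0 FPKM and the receptor Fzd10 from 1.70 to 31.8 FPKM, whereas the inhibitor Sfrp2 fell from 115 to 9.20 FPKM and the R-spondin Rspo3 from 4.35 to 0.864 FPKM.

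Marker sums differed between the forms as well. Placenta-like markers summed to 110, 111, 149 and 140 FPKM with SALL4-WT and 724, 745, 704 and 552 FPKM with SALL4-delN12, macrophage markers to 83.5, 31.9, 23.7 and 24.1 FPKM and 164, 205, 197 and 393 FPKM, and keratinocyte markers to 10.2, 12.3, 21.0 and 31.1 FPKM and 17.8, 69.3, 44.0 and 45.1 FPKM. PrE markers summed to 28.2, 31.5, 31.7 and 37.4 FPKM and 41.4, 70.2, 151 and 430 FPKM. Fibroblast markers summed to 1060, 1880, 1790 and 2050 FPKM with SALL4-WT and 2250, 2100, 2030 and 1850 FPKM with SALL4-delN12. On day 1 the BMP targets Id1, Id2, Id3 and Smad6 read 570, 130, 399 and 20.1 FPKM with SALL4-WT. With SALL4-delN12 they read 215, 45.1, 105 and 6.02 FPKM that day, while Smad7 read 18.7 FPKM with SALL4-WT and 20.0 FPKM with SALL4-delN12. The part of these values in the ligand differences was not tested.

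The chromatin data of the SALL4 cultures are peak lists, with a score that is 10 times the negative log10 of the peak caller's p-value, and is at least 50 in every list. In MEFs all 9 genes had an ATAC-seq peak within 2 kb of a start, as 69.1% of 21866 protein-coding genes did. With SALL4-WT 7, 8, 8 and 8 did on days 1, 5, 9 and 11 (63.1%, 67.2%, 66.6% and 67.0% of genes), and with SALL4-delN12 7, 7, 8 and 8 did (61.0%, 62.9%, 64.3% and 64.8%). At a score of at least 100, 4 did on day 1 of either form, against 54.6% of genes with SALL4-WT and 53.7% with SALL4-delN12. Wnt3, at most 0.368 FPKM in these cultures, had a peak in MEFs only. Wnt10a had none on day 1 of either form and on day 5 of SALL4-delN12, the day on which its RNA read 50.1 FPKM.

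The strongest Wnt6 peak lay in the intron stretch printed above, between the exons that end at chr1:74772222 and begin at chr1:74782102, and was present in all 9 lists. Its score was 743.2 in MEFs, then 209.6, 487.8, 441.1 and 631.7 with SALL4-WT and 257.6, 233.0, 284.2 and 342.7 with SALL4-delN12. On days 5, 9 and 11 it was thus the lower one with SALL4-delN12, where Wnt6 RNA was the higher one. The Wnt6 start itself lay under an ATAC-seq peak in 1 list, day 5 of SALL4-WT, at a score of 57.89. Axin2 had a peak over its start in every list, with scores of 1196 in MEFs, 429.1 to 1142 with SALL4-WT and 780.7 to 882.8 with SALL4-delN12. The Wnt4 score was 333.3 in MEFs, 60.02 and 63.02 on day 1 of the 2 forms, and on days 5, 9 and 11 it was 370.5, 334.4 and 458.5 with SALL4-WT and 93.45, 288.2 and 245.3 with SALL4-delN12. Scores rise with the depth of a library, and the lists held between 78517 and 125470 peaks, so a score cannot be compared between lists without that limit.

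SALL4 itself had a peak near 2 of the 9 genes with SALL4-WT, against 55.2% of genes, and near 3 with SALL4-delN12, against 41.9%. Both forms had one over the Wnt6 intron stretch, with a score of 203.3 for SALL4-WT and 82.49 for SALL4-delN12, and one over the Axin2 start, with 211.0 and 126.1. The third, at Wnt7b, was listed for SALL4-delN12 alone, with 69.43. H3K27ac had a peak near 3 of the 9 with either form, against 50.0% and 59.4% of genes, at Wnt11 (62.68), Axin2 (122.8) and Lef1 (91.00) with SALL4-WT and at Wnt4 (160.6), Wnt7b (126.0) and Lef1 (122.3) with SALL4-delN12. At a score of at least 100 the counts were 1 and 3 for H3K27ac, against 40.1% and 53.6% of genes. For SALL4 with SALL4-delN12 the count at that score was 1, against 28.7%. Neither Wnt6 nor Wnt10a had an H3K27ac peak within 2 kb in either list. The H3K27ac lists differed in size, with 19841 peaks over 34.9 Mb for SALL4-WT and 45599 peaks over 74.4 Mb for SALL4-delN12, and the authors merged CUT&Tag replicates before calling peaks, so a peak in 1 list alone has no replicate check.

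**Figure D5:**
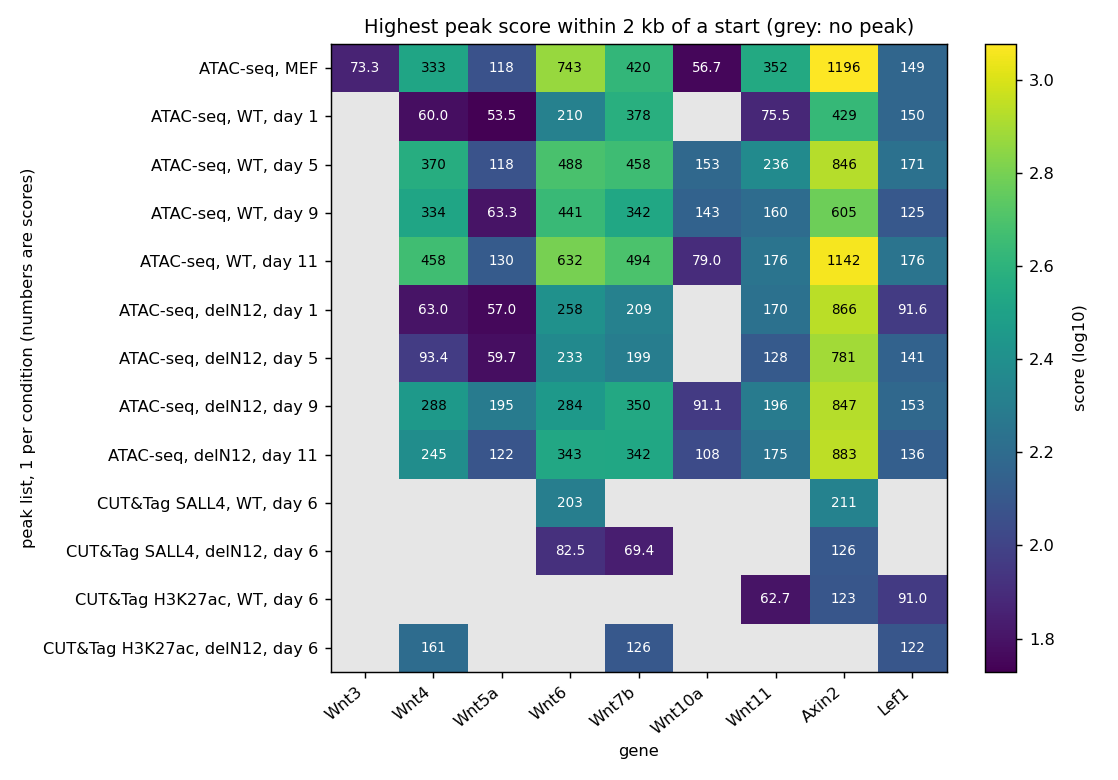
Heat map of the highest peak score within 2 kb of a start of each of the 9 genes (columns) in the 13 ATAC-seq and CUT&Tag peak lists (rows), coloured by log10 of the score, with grey where no peak was listed. Wnt6 and Axin2 are the genes with a SALL4 peak for both forms, and Wnt3 is grey in all lists but that of MEFs.

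Across the 17 libraries of the time course, the genes most like each other among the 9 were Wnt6 and Wnt10a, with a Pearson r of 0.973 on log2(FPKM + 1), and each was the closest to the other among 12351 genes. Wnt6 with Wnt7b and Wnt7b with Wnt10a had 0.743 and 0.737, Wnt3 with Wnt10a 0.724, Axin2 with Lef1 0.284, and Wnt11 with Lef1 -0.514. The nearest genes to Wnt4 were Tmem37 (0.935), Htra1 (0.915) and Napa (0.912), and those to Wnt3 were Svs3b (0.978), Cfc1 (0.968) and Mmd2 (0.963). Those to Wnt7b were Psca (0.894), Dysf (0.885) and Lsp1 (0.869), those to Wnt5a Hadhb (0.873), Mlec (0.867) and Hspa5 (0.857), and those to Wnt11 Shf (0.821), Mir6991 (0.760) and Atg2a (0.728). Axin2 was most like Gm21685 (0.924), Entpd4 (0.914) and Slc7a7 (0.908), and Lef1 most like Ap5s1 (0.939), Gstm2 (0.928) and Phldb3 (0.922). After each other, Wnt6 and Wnt10a were most like Rgs3 (0.935 and 0.927) and Gm32099 (0.926 and 0.961). The libraries share cultures of 2 experiments and are not independent, so these values describe the table and nothing was tested on them.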

How the data were processed

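Bulk RNA was read in 23 libraries, single cells in 2, and chromatin in 9 ATAC-seq and 4 CUT&Tag peak lists, with 1 per condition. The authors deposited bulk values as FPKM in 2 tables normalised separately (submitters' processing notes: Trim Galore 0.6.4, HISAT2 2.2.1, StringTie 2.2.1, mm10). The single-cell values are UMI counts deposited by the authors with their cell labels (STAR, Scanpy), and 10749 cells of other work in that table were not used. The authors removed low-quality cells by UMIs and total counts; whether doublets were removed is not given in the sources used here, and no doublet caller was run. The peak score was deposited by the authors as MACS 1.4.2 wrote it (Bowtie2 2.4.5, SAMtools 1.16.1), on short fragments with duplicates kept for ATAC-seq and on merged replicates for CUT&Tag. Columns of the authors' own comparisons were not used.

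Read depth is not given with FPKM. Differences were taken on log2(FPKM + 1) among genes at 1 FPKM or more in either library, and 1 on that scale was the threshold. UMI counts were summed per sample and label, scaled to counts per library total (CPM) with exact Poisson intervals, and compared as log2(CPM + 1) among genes at 1 CPM or more. These intervals cover counting error only. Peaks were assigned by overlap with a window of 2 kb around any annotated start. With 1 library per condition there was no test; the steps were tested on simulated data. Pathway genes were named by a rule, up to 4 with the largest differences in each direction, and similar genes as the 3 of highest Pearson r. The 9 genes, the pathway lists and the marker lists were chosen with earlier results of these data known. Alternatives were a pseudocount of 0.1, a filter at 5 FPKM or none, median-ratio scaling, other cell filters and thinning to 2000 UMIs, and windows of 1 and 5 kb or a score of 100 for peaks. Python 3.11.15, pandas 2.3.3, NumPy 2.4.6, SciPy 1.17.1 and matplotlib 3.10.9 were used.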

Additional observations from a re-analysis of the deposited data

Results flagged for a closer look

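With 1 library per condition, differences in direction between conditions are listed as values and were not tested. Wnt11 was lower with BMP4 on day 1 of JGES (-1.04 on the log2 scale) and higher on days 5 (1.63) and 7 (1.76). Sall4 added to JGE without BMP4 went with lower Wnt7b (-2.63) and Wnt11 (-1.27), whereas Sall4 added to JGEO with BMP4 went with higher Wnt7b (1.30) and Wnt11 (1.21). Oct4 added to JGES without BMP4 went with higher Wnt4 (1.72), whereas Oct4 added to JGE went with lower Wnt4 without BMP4 (-1.52) and with it (-2.92), and Oct4 added to JGES with BMP4 went with lower Wnt4 (-1.03).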

How the results depend on the processing

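Of 1017 differences of single genes under the alternatives, 994 stayed on their side of the threshold, 17 passed it newly and 6 no longer passed it. None that had passed it changed sign, and changes of sign short of it were not counted. A filter at 5 FPKM or none cannot change a gene's difference, so the 252 differences under each were bound to stay. With a pseudocount of 0.1, 239 stayed and 13 passed newly. With median-ratio scaling 242 stayed, 4 passed newly and 6 no longer passed. The remaining 9 came from the same day 7 libraries in the table of the factor sets. Of 113 counts of genes that rose 107 stayed within 1.5 times their value, as did 107 of 113 counts of genes that fell. With a pseudocount of 0.1, the genes that rose with BMP4 in JGES went from 1 to 3 on day 1 and from 1 to 2 on day 3, those that fell from day 0 without BMP4 from 0 to 1 by day 1 and from 1 to 2 by day 5, and those that rose from JGEO to JGESO without BMP4 from 0 to 1. With median-ratio scaling, the day 3 rise went from 1 to 2, the fall from day 0 to day 5 without BMP4 from 1 to 2, the count from JGE to JGES with BMP4 from 0 to 1 for rises and from 2 to 1 for falls, and that from JGEO to JGESO without BMP4 from 0 to 1 for rises and from 4 to 2 for falls. With a filter at 5 FPKM the fall from day 0 to day 3 without BMP4 went from 1 to 0, which follows from the fewer genes tested; the cause of the other shifts was not tested. Peaks at a score of at least 100 left 4 of 7 genes on day 1 of either form, 1 of 3 for SALL4 of SALL4-delN12 and 1 of 3 for H3K27ac of SALL4-WT. The shares of all genes at that score are given with the chromatin results above. Of 113 medians over the 9 genes 17 moved, 8 with the pseudocount and 9 with the scaling, and the filters cannot change these medians. Of 270 single-cell CPM values 87 moved beyond their counting interval, and of 216 shares 193 did, since the number of UMIs a cell is thinned to sets the share. The counts of ligands highest in intermediate-state cells stayed within 1.5 times under the 4 settings tried. Without the 6% of cells with the most UMIs the count by CPM with BMP4 went from 5 to 6, as Wnt7b changed its highest label. The alternative of cells with UMIs of at least 3 markers gave no value for intermediate-state cells, which have no marker list. No analysis paired by replicate number was possible because each condition has 1 library and the conditions share fewer than 2 replicate numbers. A fit with the days or the factor sets as blocks, which would take them as replicates, was not run. Depth behind FPKM is unknown, and the 142 PrECLCs without BMP4 limit that label to few UMIs.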

Other observations

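Bulk and single-cell values of 2 other pathway genes on day 7 of JGES are set side by side without comment on their cause. Apcdd1, a target gene of the pathway, was 31.7 FPKM without and 33.1 FPKM with BMP4 in bulk, and 0.625 and 34.7 CPM over all single cells. Dkk1 was 2.89 and 73.5 FPKM in bulk and 2.36 and 196 CPM over all single cells. Both genes were picked after their values were seen.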
